A study of Mus musculus with 22 samples.

Results

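Integrin subunits and the hyaluronan receptor CD44 were followed in RNA-seq libraries of whole mouse pancreas. The 10 genes, Itga2, Itga3, Itga5, Itga6, Itgav, Itgb1, Itgb4, Itgb5, Itgb6 and Cd44, were taken by name as matrix receptors of pancreatic epithelium, by a rule with no threshold on measured values but with earlier results of these data known, out of 16235 genes for which counts were listed. All 10 had counts in each of the 22 libraries, as had 11791 genes in all. The mice were C57Bl/6 animals in which Ehmt2, the gene of the histone methyltransferase G9a, carried loxP sites on both alleles (Ehmt2fl/fl) or was wild type (Ehmt2+/+), and 1 library was made per mouse. Every mouse, Ehmt2+/+ controls included, carried Cre under a pancreas promoter. Pdx1-Cre is a transgene active in the early pancreatic epithelium, and P48-Cre replaces the coding sequence of Ptf1a on its chromosome, so that P48-Cre mice have lost a Ptf1a allele. Cells that do not express Cre, such as leukocytes, fibroblasts and endothelium, keep Ehmt2 in all mice and are part of whole tissue.

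The caerulein-treated mice were 4 weeks old, were fasted for 12 h and received 8 hourly injections of 50 µg/kg caerulein, an analog of cholecystokinin that injures acinar cells and is a standard model of acute pancreatitis. Their pancreas was taken 18 h after the first dose. They were 2 Pdx1-Cre;Ehmt2fl/fl and 4 Pdx1-Cre;Ehmt2+/+ mice, and 3 P48-Cre;Ehmt2fl/fl and 2 P48-Cre;Ehmt2+/+ mice. The untreated young adults (4 weeks) were 3 Pdx1-Cre;Ehmt2fl/fl and 2 Pdx1-Cre;Ehmt2+/+ mice, and the postnatal mice (day 10) were 3 of each Pdx1-Cre genotype. No fast or injection was recorded for the untreated mice and there was no untreated P48-Cre group here. Treated and untreated mice were different cohorts, so a caerulein difference and a cohort difference cannot be told apart.

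Integrins are heterodimers of an α and a β chain that bind extracellular matrix outside the cell and, through talin and kindlin, actin inside it. The β1 chain (Itgb1) pairs with α2 (Itga2, mainly a collagen receptor), α3 and α6 (Itga3 and Itga6, laminin receptors), α5 (Itga5, a fibronectin receptor) and αv (Itgav). The β4 chain (Itgb4) pairs with α6 in hemidesmosomes, which tie epithelia to laminin, and β5 and β6 (Itgb5 and Itgb6) pair with αv in receptors of vitronectin, fibronectin and latent TGF-β. CD44 binds hyaluronan and is carried by leukocytes and by many injured epithelia. In the pancreas, acinar and duct cells rest on a laminin-rich basement membrane, and acinar cells injured by caerulein take on duct-like features for a time.

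The upstream windows of the 3 genes that were called higher in both treated Ehmt2fl/fl groups, described further on, are printed here. They are the 250 bases before the start site of Itga2 (chr13:114932101-114932350, minus strand, 60.8% GC), of Itga3 at the more upstream of its RefSeq starts (chr11:95076715-95076964, minus strand, 67.6% GC) and of Cd44 (chr2:102901666-102901915, minus strand, 56.4% GC), from RefSeq on GRCm38.p6, 5′ to 3′ on the strand of the gene. Capitals mark the letters GGGCGG of a GC box, found only in the Itga3 window, where they start 178, 144 and 35 bases before the start site.
Itga2: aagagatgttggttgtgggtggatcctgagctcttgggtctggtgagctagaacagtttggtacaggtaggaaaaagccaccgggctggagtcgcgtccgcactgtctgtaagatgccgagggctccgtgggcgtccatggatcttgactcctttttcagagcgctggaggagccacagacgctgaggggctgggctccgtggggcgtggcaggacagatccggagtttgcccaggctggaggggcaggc
Itga3: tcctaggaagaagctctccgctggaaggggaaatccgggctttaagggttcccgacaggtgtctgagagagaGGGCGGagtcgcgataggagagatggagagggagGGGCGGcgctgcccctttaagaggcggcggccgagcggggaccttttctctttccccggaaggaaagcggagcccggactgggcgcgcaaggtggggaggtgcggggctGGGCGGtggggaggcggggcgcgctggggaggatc
Cd44: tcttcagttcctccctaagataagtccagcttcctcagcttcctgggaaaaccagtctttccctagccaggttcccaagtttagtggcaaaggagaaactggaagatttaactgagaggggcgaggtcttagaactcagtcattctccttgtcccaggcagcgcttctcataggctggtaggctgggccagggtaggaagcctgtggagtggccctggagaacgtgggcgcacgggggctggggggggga

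On GRCm38 the 3 genes lie at chr13:114833081-114932100 (Itga2), chr11:95044474-95076801 (Itga3) and chr2:102811141-102901665 (Cd44), and counts were taken over all exons of each. These spans are from Gencode, and that of Itga3 begins upstream of the RefSeq start used for its window. The end of that window, with the GC box nearest the RefSeq start, therefore lies inside the gene span. RefSeq windows were matched for 8 of the 10 genes, 10 windows in all, and none was printed or searched for Itga6 and Itgb4. The AP-1 letters TGANTCA were in 0 of these 10 windows, against 6.75% of 32851 windows of the same length. The TEAD letters GGAATG were in the Itgb1 window alone (12.6% of all windows). The GC box GGGCGG was in 5 windows of 4 genes, Itga3, Itga5, Itgb1 and Itgb5 (32.7% of all windows), and the TATA letters TATAAA were in 0 (12.4% of all windows). Both strands were searched and overlapping matches were allowed. A match of letters is a description of the window and no binding was measured.

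Total counts ran between 14229980 and 40321967 per library. Levels are given as CPM scaled by TMM over the 11791 shared genes. A gene is called changed where the quasi-likelihood test of edgeR gave a Benjamini-Hochberg adjusted p under 0.1 over all genes tested and the difference was at least 2-fold. Ehmt2 itself was at 57.6 ± 0.646 CPM in treated Pdx1-Cre;Ehmt2fl/fl mice, against 65.2 ± 3.42 CPM in Pdx1-Cre;Ehmt2+/+ mice, and at 48.2 ± 11.03 CPM in treated P48-Cre;Ehmt2fl/fl mice, against 61.1 ± 12.5 CPM in P48-Cre;Ehmt2+/+ mice (mean ± SD). Over both drivers its log2 difference was -0.27 (edgeR, adjusted p = 0.29), and counts over the whole gene do not resolve the floxed exons, so this is no check of the deletion. Digestive enzyme genes took 80.1 to 85.0% of the counts over the shared genes in young adults and 39.9 to 64.2% in treated mice. Without a correction for this composition, with library totals alone, the median log2 difference of all genes moved to 2.38 for caerulein in Ehmt2fl/fl mice, 1.55 for caerulein in Ehmt2+/+ mice, and 0.84 and 0.82 for genotype in treated Pdx1-Cre and P48-Cre mice. Differences are therefore given relative to the bulk of genes. Sex read from the libraries was male in both treated Pdx1-Cre;Ehmt2fl/fl mice and female in all 4 of their controls, so that genotype and sex cannot be told apart in that pair of groups, whereas both sexes were present in every other treated or young adult group. In bulk tissue, fewer cells of a type and less RNA per cell cannot be told apart.

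Compared per kilobase of transcript, Itgb1 had the highest level of the 10 genes in each of the 8 groups, at 44.1 CPM per kb in treated Pdx1-Cre;Ehmt2fl/fl and 40.9 in Pdx1-Cre;Ehmt2+/+ pancreas, 23.6 and 23.2 in young adult Ehmt2fl/fl and Ehmt2+/+ pancreas, and 46.9 and 40.7 in postnatal Ehmt2fl/fl and Ehmt2+/+ pancreas. Itgb1 in single libraries stayed between 89.4 and 249.1 CPM, the narrowest span of the 10 genes as a ratio of highest to lowest, followed by Itga6 with 40.1 to 150.5 CPM. Itga2 spanned 0.161 to 21.6 CPM and Cd44 3.71 to 160.5 CPM. The widest spans were thus those of a collagen-binding α chain and of the hyaluronan receptor.

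**Figure D1:**
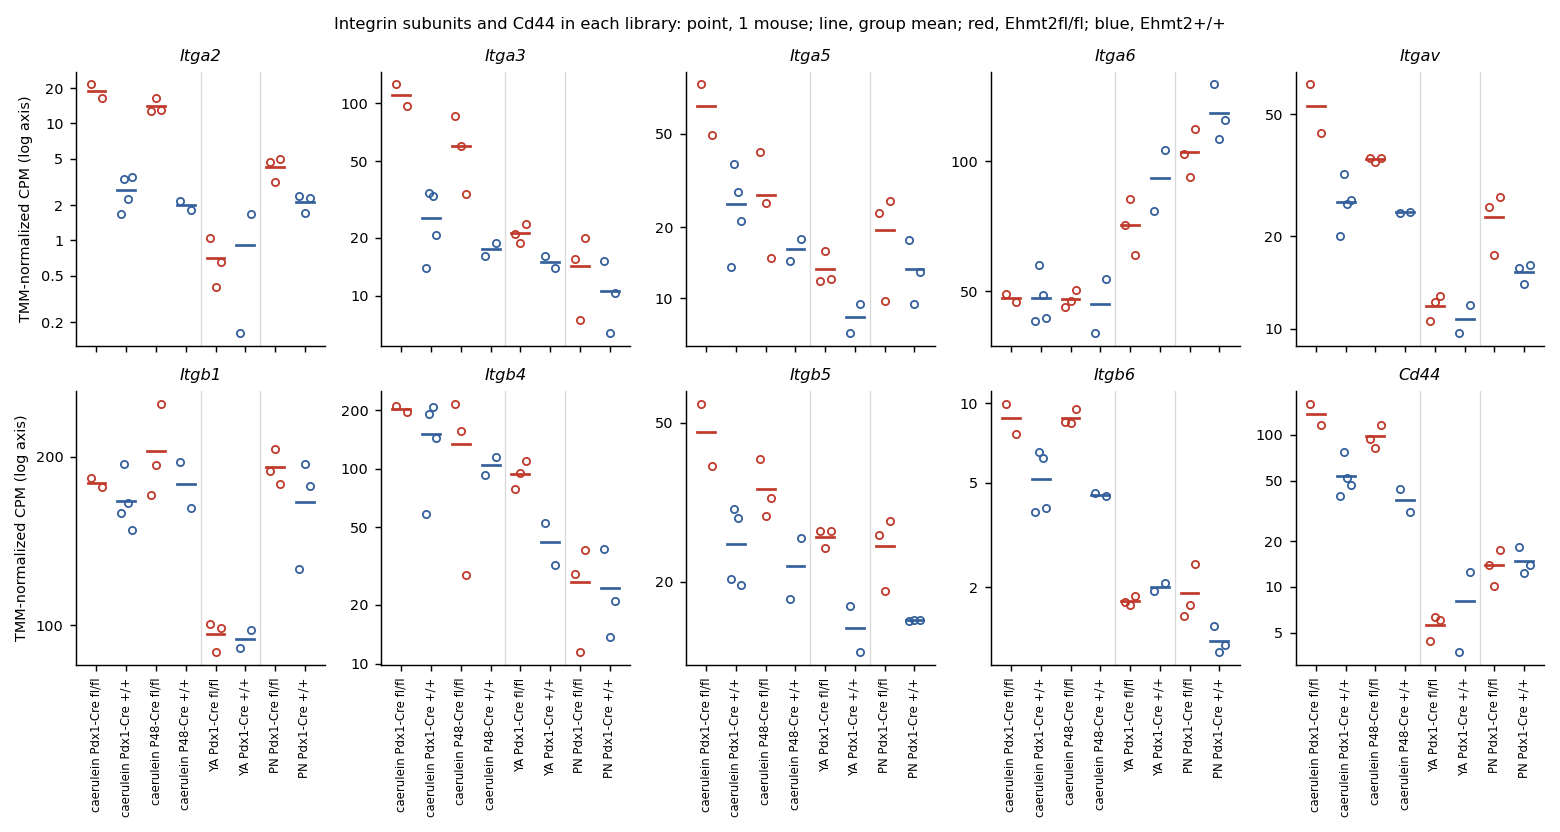
CPM (log axis) of the 10 genes in each of the 22 mice, with Ehmt2fl/fl in red left of Ehmt2+/+ in blue for caerulein-treated Pdx1-Cre and P48-Cre, young adult and postnatal groups; a line marks the group mean. For Itga2, Itga3 and Cd44 each of the 5 treated Ehmt2fl/fl mice lies above all treated Ehmt2+/+ mice of its driver, and treated Pdx1-Cre mice lie below young adults for Itga6, a direction that flips with library totals alone.

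Caerulein-treated and untreated young adult Pdx1-Cre mice were compared within each genotype to see how the matrix receptors stood in acute pancreatitis. In Ehmt2fl/fl mice 7 of the 10 genes were called higher after caerulein (18.5% of 14593 genes tested), the α chains Itga2, Itga3, Itga5 and Itgav, the β chains Itgb4 and Itgb6, and Cd44, and 0 lower. The median of the 10 was a log2 difference of 2.24, against 0.12 over all genes. Itga2 had 21.6 and 16.4 CPM in treated Ehmt2fl/fl mice, against 1.06, 0.396 and 0.655 CPM (6, 3 and 6 reads) in untreated Ehmt2fl/fl mice. That was the largest difference among the 10, 28.0-fold (log2 4.81 ± 0.55, adjusted p = 5.73e-05). Cd44 followed with 160.5 and 115.5 CPM in treated mice, against 4.41, 6.33 and 6.11 CPM in untreated mice (24.5-fold, adjusted p = 2.18e-05). Itga3 had 125.1 and 96.1 CPM in treated and 21.0, 18.7 and 23.7 CPM in untreated Ehmt2fl/fl mice (5.26-fold, adjusted p = 0.00019). Itga5, Itgb6 and Itgav were 4.96-fold, 4.97-fold and 4.48-fold higher. Itgb4 was 2.17-fold higher at an adjusted p of 0.0484, which passed 0.1 without untreated Ehmt2fl/fl mouse 1 (0.154) or 2 (0.121) or treated Ehmt2fl/fl mouse 1 (0.156) or 2 (0.117). Itgb1 and Itgb5, at 1.88-fold and 1.84-fold, stayed under the 2-fold limit, and Itgb5 passed it without treated Ehmt2fl/fl mouse 2 (log2 1.11, adjusted p = 0.0114).

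In Ehmt2+/+ mice 6 of the 10 genes were called higher after caerulein (10.4% of 13950 genes tested), those just named other than the laminin receptor chain Itga3, and again 0 lower. The median log2 difference of the 10 was 1.32, against 0.10 over all genes tested. Cd44 stood at 39.5, 77.4, 52.2 and 47.2 CPM in the treated Ehmt2+/+ mice, against 3.71 and 12.6 CPM in the untreated ones. The groups were well apart, although the untreated mice themselves differed more than 3-fold. The log2 difference of Cd44 was 2.72 ± 0.44 (SE; 6.59-fold, adjusted p = 0.00101), and 2.16 or 3.86 without the untreated mouse 1 or 2. Itgb4 had 58.9, 190.3, 208.8 and 143.9 CPM in treated Ehmt2+/+ mice, against 52.6 and 32.0 CPM in untreated mice, so that the lowest treated mouse lay just above the higher untreated one (log2 1.85 ± 0.45, adjusted p = 0.00934). The fibronectin receptor chain Itga5 was 3.06-fold higher (adjusted p = 0.0105), Itgav 2.42-fold higher (adjusted p = 0.00225) and Itgb6 2.59-fold higher (adjusted p = 0.007). Itgb1, Itgb5 and Itga3 were 1.78-fold, 1.64-fold and 1.71-fold above the untreated level and were not called. The call of Itga2 rested on few reads. It had 1.69, 3.37, 2.24 and 3.51 CPM in treated Ehmt2+/+ mice, against 0.161 and 1.68 CPM (1 and 13 reads) in untreated mice, and its log2 difference of 1.48 ± 0.59 (adjusted p = 0.079) was 0.75 (adjusted p = 0.407) without the untreated mouse 1 and 4.04 without mouse 2. It also lost its call without treated Ehmt2+/+ mouse 2 (adjusted p = 0.132) or 4 (adjusted p = 0.123), or treated Ehmt2fl/fl mouse 1 (adjusted p = 0.102).

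Itga6, the α chain of the hemidesmosome integrin, was the only one of the 10 with a negative difference in both genotypes, though it flipped to 1.71 in Ehmt2fl/fl and 0.52 in Ehmt2+/+ mice with library totals alone. It had 49.2 and 47.3 CPM in treated Ehmt2fl/fl mice, against 71.4, 81.6 and 60.9 CPM in untreated Ehmt2fl/fl mice. In Ehmt2+/+ mice it had 42.7, 57.7, 49.0 and 43.5 CPM after caerulein, against 76.8 and 105.9 CPM without. No treated mouse reached the lowest untreated mouse of its genotype. That order was common, seen in 33.3% of 11791 genes in Ehmt2fl/fl and 24.5% in Ehmt2+/+ mice. The log2 differences were -0.55 ± 0.21 (adjusted p = 0.0468) in Ehmt2fl/fl and -0.91 ± 0.19 (adjusted p = 0.00413) in Ehmt2+/+ mice, both short of 2-fold. In Ehmt2+/+ mice it came to -1.08 without untreated Ehmt2+/+ mouse 1 and -1.01 without treated Ehmt2+/+ mouse 2, which makes a call. Counting libraries, all treated mice lay above all untreated mice of the genotype for 9 of the 10 genes in Ehmt2fl/fl (40% of 11791 genes) and for 8 in Ehmt2+/+ mice (23.4%), where Itga3 overlapped.

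**Figure D2:**
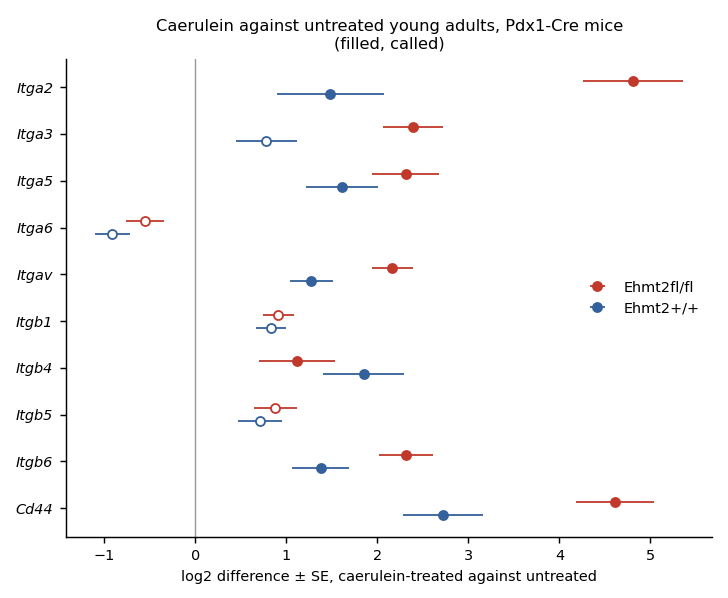
Log2 difference of caerulein-treated over untreated young adult Pdx1-Cre pancreas (± SE) for the 10 genes, Ehmt2fl/fl in red and Ehmt2+/+ in blue. Filled symbols are called and a line marks 0. Itga2 reached 4.81 in Ehmt2fl/fl and 1.48 in Ehmt2+/+ mice and Cd44 4.61 and 2.72, whereas Itga6 lay below 0 in both, a direction that flips with library totals alone.

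The caerulein difference was more positive in Ehmt2fl/fl than in Ehmt2+/+ mice for 9 of the 10 genes, but the difference between genotypes itself was called for 0 of them (0.379% of 13468 genes tested called higher in Ehmt2fl/fl). At an unadjusted p under 0.05, edgeR gave 4 of the 10 genes and 1894 of all 13468. The 4 were Itga2 (log2 3.33 ± 0.87, adjusted p = 0.122), Itga3 (1.62 ± 0.46, adjusted p = 0.148), Cd44 (1.89 ± 0.58, adjusted p = 0.18) and Itgav (0.89 ± 0.32, adjusted p = 0.251). DESeq2 called 3 of the 10, but it called more genes in all, 204 higher and 365 lower, against 51 and 118 by edgeR. Itgb4 was the exception with a less positive caerulein difference in Ehmt2fl/fl mice (-0.73 ± 0.60, adjusted p = 0.59). The 2 untreated Ehmt2+/+ mice decide these values. Without mouse 1, Itga2 came to 4.00 (adjusted p = 0.0329) and Cd44 to 2.40 (adjusted p = 0.0354), both called, and without mouse 2 they came to 0.72 (adjusted p = 0.952) and 0.70 (adjusted p = 0.809). Itga2 was also called without treated Ehmt2+/+ mouse 4 (3.48, adjusted p = 0.0812). Untreated Ehmt2+/+ mouse 2 had 91.9 summed CPM of leukocyte and platelet integrin genes, against 18.2 to 25.02 CPM in the other 4 young adults, and the part of this in its Cd44 and Itga2 levels was not tested. Sex enters these values too, because the treated Ehmt2fl/fl mice were all male and the treated Ehmt2+/+ mice all female. Both untreated groups held both sexes. With sex as a covariate the median log2 of the 10 was 0.66, against 0.79 without. Over all genes 1 was then called higher and 18 lower, against 51 and 118.

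Genotype was then compared within the treated mice, for each Cre driver. In Pdx1-Cre mice 4 of the 10 genes were called higher in Ehmt2fl/fl pancreas (4.22% of 15174 genes tested) and 0 lower. They were Itga2, Itga3, Itgav and Cd44, and the median log2 difference of the 10 was 0.95, against -0.02 over all genes. Itga2 had the 21.6 and 16.4 CPM given above in Ehmt2fl/fl mice, against 1.69, 3.37, 2.24 and 3.51 CPM in Ehmt2+/+ mice, with a wide gap between the groups (6.86-fold, log2 2.78 ± 0.28, adjusted p = 0.00109). Itga3 had 125.1 and 96.1 CPM in Ehmt2fl/fl mice, against 13.9, 34.0, 32.8 and 20.8 CPM in Ehmt2+/+ mice (4.24-fold, log2 2.09 ± 0.42, adjusted p = 0.0195). Cd44 had 160.5 and 115.5 CPM in Ehmt2fl/fl mice, against 39.5, 77.4, 52.2 and 47.2 CPM in Ehmt2+/+ mice (2.50-fold, log2 1.32 ± 0.28, adjusted p = 0.0255). Itgav, with 62.5 and 43.5 CPM in Ehmt2fl/fl against 20.03, 31.9, 25.4 and 26.3 CPM in Ehmt2+/+ mice, was at 2.00-fold (adjusted p = 0.0221). These 4 genes do not overlap between the groups. Nor do Itga5, Itgb5 and Itgb6, which makes 7 of 10 (19.6% of 11791 genes), although Itga5 (log2 1.34 ± 0.45, adjusted p = 0.113), Itgb5 (0.90 ± 0.27, adjusted p = 0.0782) and Itgb6 (0.74 ± 0.25, adjusted p = 0.119) were not called. Itga5 and Itgb5 were called in some fits without a mouse, namely without Pdx1-Cre;Ehmt2+/+ mouse 2 (Itga5 1.60, Itgb5 1.02) or 3 (Itgb5 1.01), or P48-Cre;Ehmt2fl/fl mouse 1 (Itga5 1.34, adjusted p = 0.0861) or 3 (Itga5 1.40, adjusted p = 0.0437).

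The Pdx1-Cre calls other than that of Itga2 rest on Ehmt2fl/fl mouse 1. Without it Itga3 was at log2 1.89 (adjusted p = 0.207), Cd44 at 1.07 (adjusted p = 0.308) and Itgav at 0.72 (adjusted p = 0.327), with 1 mouse left in the group and its spread taken from the other groups, and Itgav fell under 2-fold without Ehmt2+/+ mouse 1 as well (0.88). With sex as a covariate, which the P48-Cre mice of both sexes inform, Itga2 kept its call (2.77, adjusted p = 0.0358), whereas Itga3 (2.53, adjusted p = 0.107), Cd44 (1.504, adjusted p = 0.173) and Itgav (1.03, adjusted p = 0.2) lost it.

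In treated P48-Cre mice 3 of the 10 genes were called higher in Ehmt2fl/fl pancreas (4.01% of 14752 genes tested), Itga2, Itga3 and Cd44, and 0 lower. The median of the 10 was a log2 difference of 0.71, against 0.03 over all genes. Itga2 had 12.8, 16.4 and 13.0 CPM in Ehmt2fl/fl mice, against 2.17 and 1.83 CPM in Ehmt2+/+ mice (7.04-fold, log2 2.81 ± 0.35, adjusted p = 0.00397). Cd44 had 94.4, 82.1 and 117.0 CPM in Ehmt2fl/fl mice, against 43.9 and 31.1 CPM in Ehmt2+/+ mice (2.61-fold, log2 1.38 ± 0.33, adjusted p = 0.0454). Itga3 had 85.9, 59.9 and 33.5 CPM in Ehmt2fl/fl mice, against 16.1 and 18.7 CPM in Ehmt2+/+ mice (3.46-fold, log2 1.79 ± 0.49, adjusted p = 0.0721). The groups were apart for all 3 genes, with the Ehmt2fl/fl mice close together for Itga2 and spread more than 2-fold for Itga3. All Ehmt2fl/fl mice also lay above all Ehmt2+/+ mice for Itgav, Itgb5 and Itgb6, 6 of 10 genes in all (19.5% of 11791 genes), at log2 differences of 0.57, 0.64 and 0.96 that were not called.

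Without P48-Cre;Ehmt2+/+ mouse 1 or 2, Cd44 was at 1.63 (adjusted p = 0.111) or 1.17 (adjusted p = 0.366) and Itga3 at 1.67 (adjusted p = 0.245) or 1.92 (adjusted p = 0.363). Itga3 lost its call also without P48-Cre;Ehmt2fl/fl mouse 1 (adjusted p = 0.144) or 2 (adjusted p = 0.15) and without either Pdx1-Cre;Ehmt2fl/fl mouse (adjusted p = 0.105 each), and Itga2 kept its call without each mouse in turn.

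The genotype differences of the 2 drivers were set against each other in the same model. For the 10 genes they differed by a log2 of at most 0.57 in size (Itga5, lower in P48-Cre), with adjusted p between 0.848 and 0.998, and 0 were called (0% of 14440 genes tested). Over all genes edgeR called 0, with 702 at an unadjusted p under 0.05, and DESeq2 called 2. For Itga2 the difference between drivers was 0.04 and for Cd44 0.06, with an SE of 0.42 and 0.43. With the average over both drivers, Itga2 (6.94-fold, adjusted p = 2.88e-05), Itga3 (3.86-fold, adjusted p = 0.00172), Cd44 (2.55-fold, adjusted p = 0.0015) and Itga5 (2.11-fold, adjusted p = 0.0494) were called higher in Ehmt2fl/fl mice, 4 of 10 (5.32% of 14440 genes tested). The αv chain and its partners Itgb5 and Itgb6 were 0.80 ± 0.16, 0.78 ± 0.19 and 0.84 ± 0.19 higher on the log2 scale (adjusted p = 0.00618, 0.0199 and 0.0108), each under 2-fold. Itga6 (0.00 ± 0.13, adjusted p = 0.992), Itgb1 (0.13 ± 0.14) and Itgb4 (0.38 ± 0.47) had errors that include 0. The call of Itga5 was lost without Pdx1-Cre;Ehmt2+/+ mouse 1 (log2 0.95), Pdx1-Cre;Ehmt2fl/fl mouse 1 (adjusted p = 0.209) or P48-Cre;Ehmt2fl/fl mouse 1 (adjusted p = 0.109).

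**Figure D3:**
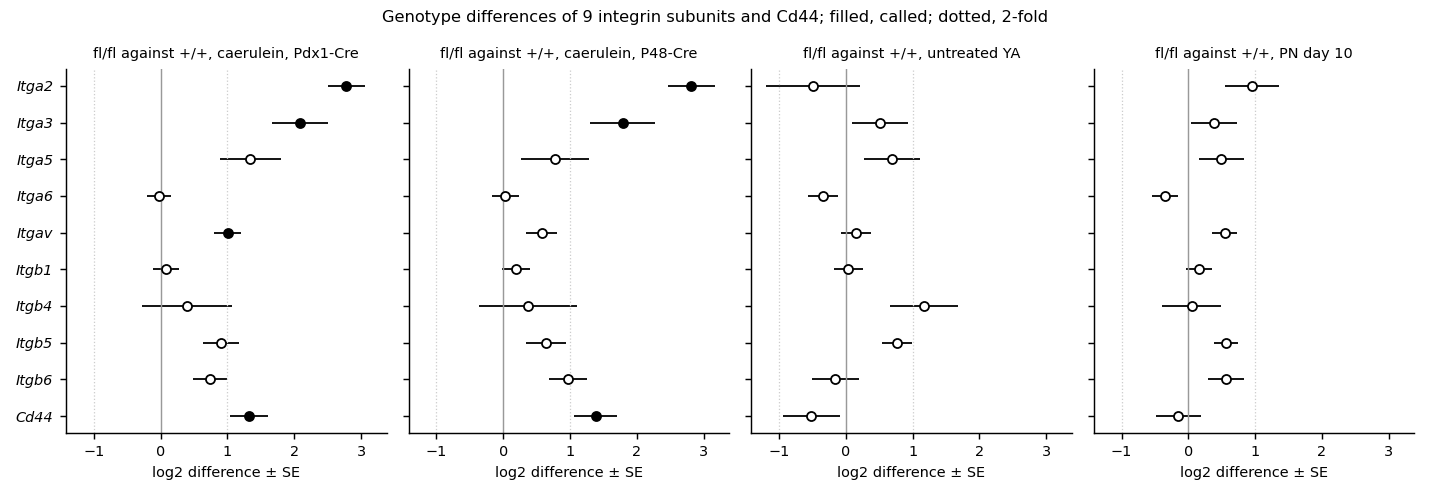
Log2 difference of Ehmt2fl/fl over Ehmt2+/+ pancreas (± SE) for the 10 genes in caerulein-treated Pdx1-Cre and P48-Cre mice, young adults and postnatal mice; filled symbols are called and dotted lines mark 2-fold. Itga2 (2.78 and 2.81), Itga3 (2.09 and 1.79) and Cd44 (1.32 and 1.38) are filled in both treated panels and no symbol is filled in the untreated ones.

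In untreated young adults 0 of the 10 genes were called higher in Ehmt2fl/fl pancreas (0.305% of 13104 genes tested) and 0 lower, with a median log2 difference of 0.10 for the 10, against -0.0037 over all genes. At an unadjusted p under 0.05, edgeR gave 2 of the 10 genes and 1214 of all 13104, namely Itgb4 (adjusted p = 0.516) and Itgb5 (adjusted p = 0.306) among the 10, and DESeq2 called 0 of the 10. Itgb4 had 78.6, 94.8 and 109.5 CPM in Ehmt2fl/fl mice, against 52.6 and 32.0 CPM in Ehmt2+/+ mice, and Itgb5 had 26.8, 24.3 and 26.8 CPM, against 17.4 and 13.3 CPM. Both were higher in all Ehmt2fl/fl mice, by log2 1.17 ± 0.51 and 0.77 ± 0.22. Including Itga3 and Itga5, 4 of 10 genes had Ehmt2fl/fl mice all above Ehmt2+/+ mice (14.5% of 11791 genes). Itgb6 had 1.76, 1.72 and 1.86 CPM in Ehmt2fl/fl mice, against 1.94 and 2.07 CPM in Ehmt2+/+ mice, the reverse order (14.4% of 11791 genes) at log2 -0.16. Cd44 (-0.52 ± 0.42, adjusted p = 0.854) and Itga2 (-0.49 ± 0.70, adjusted p = 0.953) turned to 0.60 and 2.02 without Ehmt2+/+ mouse 2, so no direction can be given for them.

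In postnatal pancreas 0 of the 10 genes were called (0.575% of 13394 genes tested called higher), with a median log2 difference of 0.44, against -1e-04 over all genes, and DESeq2 also called 0 of the 10. By edgeR 3 of the 10 genes and 1344 of all 13394 had an unadjusted p under 0.05, the 3 being Itga2, Itgav and Itgb5. Itga2 had 4.66, 3.13 and 4.98 CPM in Ehmt2fl/fl pups, against 2.38, 1.70 and 2.28 CPM in Ehmt2+/+ pups (log2 0.95 ± 0.40, adjusted p = 0.464). Itgav had 24.9, 17.4 and 27.0 CPM in Ehmt2fl/fl pups, against 15.8, 13.99 and 16.2 CPM in Ehmt2+/+ pups (0.54 ± 0.19, adjusted p = 0.361). Itgb5 had 26.2, 19.0 and 28.4 CPM in Ehmt2fl/fl pups, against 16.0, 16.1 and 16.1 CPM in Ehmt2+/+ pups (0.56 ± 0.18, adjusted p = 0.334). Together with Itgb6 these made 4 genes whose Ehmt2fl/fl pups all lay above the Ehmt2+/+ pups (8.57% of 11791 genes). The genotype difference in young adults minus that in pups was called for 0 of the 10 (0.0336% of 11907 genes tested called higher). It was below 0.05 unadjusted in 0 of them, and its largest values were -1.45 ± 0.81 for Itga2 (adjusted p = 0.687) and 1.12 ± 0.67 for Itgb4 (adjusted p = 0.711).

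The make-up of the receptor pool was described as each chain's share of the summed CPM per kb of its class, 5 α and 4 β chains. Itga6 made up 11.8 ± 2.28% of the α chain transcripts in treated Pdx1-Cre;Ehmt2fl/fl mice, against 31.0 ± 5.58% in Pdx1-Cre;Ehmt2+/+ mice, and 20.9% in treated P48-Cre;Ehmt2fl/fl mice, against 36.5% in P48-Cre;Ehmt2+/+ mice (means, SD). In young adults Itga6 was the main α chain, at 50.5% in Ehmt2fl/fl and 64.5% in Ehmt2+/+ mice, as it was in pups, at 56.6% in Ehmt2fl/fl and 69.6% in Ehmt2+/+ mice. In treated mice Itga3 held the larger share in Ehmt2fl/fl pancreas, 42.7% in Pdx1-Cre and 38.1% in P48-Cre mice, against 24.7% and 21.9% in the matching Ehmt2+/+ groups. Itga2 made up 5.87% and 7.80% of α chain transcripts in these Ehmt2fl/fl groups, against 2.19% and 2.05% in Ehmt2+/+ mice. Its mean was under 1% in untreated young adults of either genotype, although the Ehmt2+/+ mice had 0.167% and 1.37% (1 and 13 reads). Among these 5 α chains a laminin receptor chain thus had the largest share in all 8 group means. It was Itga3 in the treated Ehmt2fl/fl groups and Itga6 in the other 6. The fibronectin receptor chain Itga5 was close to Itga6 in treated Pdx1-Cre;Ehmt2+/+ mice. There Itga5 held 28.1% (23.0 to 32.4% in single mice) and Itga6 31.0% (27.1 to 39.1%), so a laminin receptor chain led clearly only in the mean. In treated Pdx1-Cre;Ehmt2fl/fl mice Itga5 held 28.7%. Further α chains were not counted, among them the leukocyte chain Itgam. Its mean was 189.3 CPM in treated Pdx1-Cre;Ehmt2fl/fl and 67.7 CPM in treated P48-Cre;Ehmt2fl/fl mice. Itga6 itself was at 48.25 CPM in treated Pdx1-Cre;Ehmt2fl/fl and 48.19 CPM in Pdx1-Cre;Ehmt2+/+ mice, so only its share differed there. Among the 4 β chains counted, Itgb1 held 50.4 to 82.6% of the transcripts in every group mean. The leukocyte chain Itgb2 was among the β chains not counted. Its mean was 124.7 CPM in treated Pdx1-Cre;Ehmt2fl/fl and 60.6 CPM in treated P48-Cre;Ehmt2fl/fl mice, against 10.3 CPM in young adult Ehmt2fl/fl mice. Itgb4 held 33.1% in treated Pdx1-Cre;Ehmt2fl/fl and 29.5% in Pdx1-Cre;Ehmt2+/+ mice, 30.1% in young adult Ehmt2fl/fl and 17.7% in Ehmt2+/+ mice, and 6.46% in Ehmt2fl/fl and 7.63% in Ehmt2+/+ pups. Shares were given no test.

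**Figure D4:**
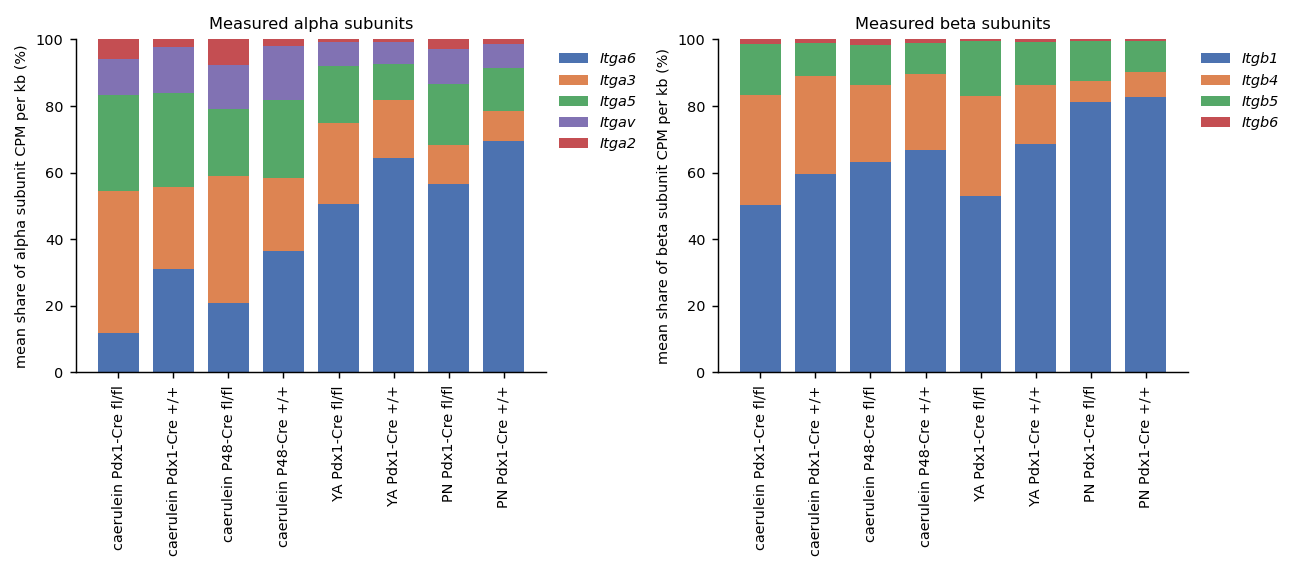
Stacked shares (%) of summed CPM per kb held by 5 α chains (left) and 4 β chains (right), as the mean of each group. Itga6 holds 11.8% of these α chain transcripts in treated Pdx1-Cre;Ehmt2fl/fl pancreas, where Itga3 holds 42.7%. Itgb1 has the largest share of these 4 β chains in all groups, and leukocyte chains are not counted.

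Some of these genes followed a property of the libraries. The GC balance of a library compares GC-rich with GC-poor genes. Each gene's log2 CPM was taken relative to its mean over the 22 libraries, and the mean of GC-poor genes was subtracted from that of GC-rich genes. This balance was lowest in P48-Cre;Ehmt2fl/fl mouse 3 among the treated mice (-0.79, the other 10 between -0.31 and 0.46), and its balance of long against short genes was -0.95. Itgb4, whose transcript is 60.0% GC, had 28.5 CPM in that mouse, against 216.1 and 156.5 CPM in the other 2 of its group. Itga3 (57.9% GC) and Itga5 (57.3% GC) were also lowest there within the group, at 33.5 and 14.9 CPM. Itgb5 (57.0% GC) was not, at 32.5 CPM, against 40.7 and 29.3 CPM in the other 2. Cd44 (44.5% GC) was highest, at 117.0 CPM, and Itga2 (43.7% GC) was in the middle, at 13.0 CPM. With GC balance as a covariate the P48-Cre differences were 1.98 for Itga3 (adjusted p = 0.0043), 2.86 for Itga2 and 1.38 for Cd44, and without the mouse they were 2.02, 2.82 and 1.19, all called. For Itgb4 the log2 difference without this mouse was 0.79 (adjusted p = 0.479), against 0.37 ± 0.73 with it. Pup libraries differed in the same way, with balances of -0.80 to 0.10 in Ehmt2fl/fl and -0.60 to 0.12 in Ehmt2+/+ pups. Library preparation was not strand-specific, so reads of Itgb4 and Itgav cannot be told apart from those of the opposite-strand genes B230344G16Rik and Gm13684, which overlap their exons over 537 and 634 bases.

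**Figure D5:**
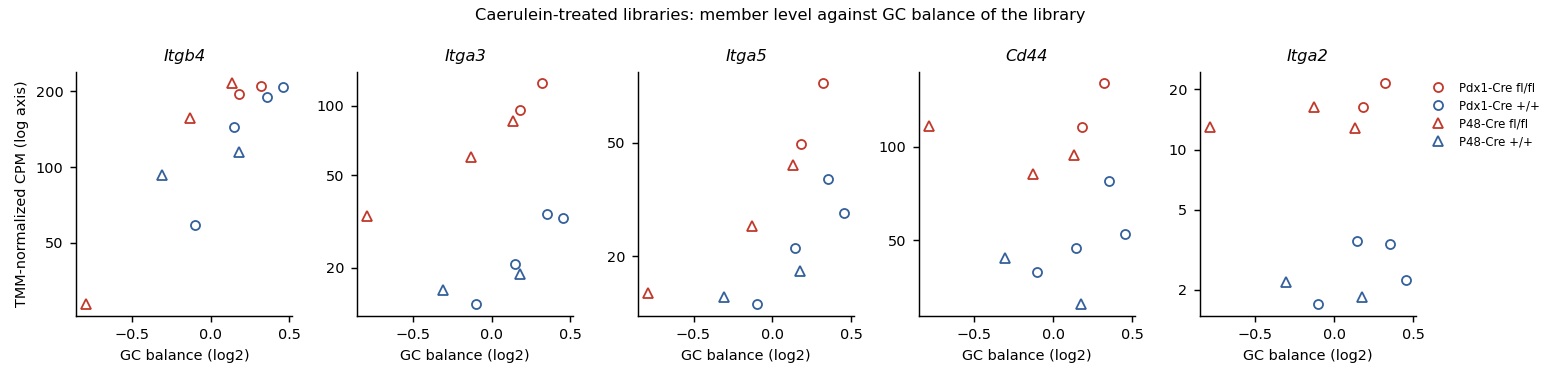
CPM (log axis) of Itgb4, Itga3, Itga5, Cd44 and Itga2 against the GC balance of the library (log2) in the 11 treated mice, Ehmt2fl/fl in red, Ehmt2+/+ in blue, circles for Pdx1-Cre and triangles for P48-Cre. The P48-Cre;Ehmt2fl/fl mouse at -0.79 has 28.5 CPM of Itgb4 but lies with its group for Itga2.

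Cell type markers moved alongside. Of all genes tested, 4.22% were called higher and 2.87% lower in treated Pdx1-Cre;Ehmt2fl/fl mice. In treated P48-Cre;Ehmt2fl/fl mice these shares were 4.01% and 1.95%. All 12 macrophage and monocyte markers had a level in every library, and their summed CPM was 1629 to 1988 in treated Pdx1-Cre;Ehmt2fl/fl mice, against 627.1 to 1020 in Pdx1-Cre;Ehmt2+/+ mice, and 1430 to 2749 in treated P48-Cre;Ehmt2fl/fl mice, against 519.8 to 866.0 in P48-Cre;Ehmt2+/+ mice. Of these 12 genes 8 were called higher in Pdx1-Cre and 6 in P48-Cre Ehmt2fl/fl mice, led by Mrc1, a mannose receptor (log2 2.10, adjusted p = 0.00288 in Pdx1-Cre), and Cd14, a lipopolysaccharide co-receptor (1.26, adjusted p = 0.0198 in P48-Cre). Neutrophil markers, 3 of 10 with a level in every library, summed to 46.1 to 78.7 CPM in treated Pdx1-Cre;Ehmt2fl/fl mice, against 5.56 to 16.1 CPM in Pdx1-Cre;Ehmt2+/+ mice, and 31.8 to 76.1 CPM in P48-Cre;Ehmt2fl/fl mice, against 4.598 to 4.75 CPM in P48-Cre;Ehmt2+/+ mice. Both groups of leukocytes carry CD44. Leukocyte and platelet integrin genes summed to 395.8 to 445.8 CPM in treated Pdx1-Cre;Ehmt2fl/fl mice, against 133.0 to 243.6 CPM in Pdx1-Cre;Ehmt2+/+ mice, but to 134.0 to 243.9 CPM in P48-Cre;Ehmt2fl/fl mice, against 122.0 to 147.9 CPM in P48-Cre;Ehmt2+/+ mice, and 2 of 8 tested were called in the first pair (Itgb2 and Itgam) and 0 of 8 in the second. The 13 epithelial and duct markers summed to 4980 to 5325 CPM in treated Pdx1-Cre;Ehmt2fl/fl mice, within the 4166 to 7565 CPM of Pdx1-Cre;Ehmt2+/+ mice, and to 6790 to 7480 CPM in P48-Cre;Ehmt2fl/fl mice, above the 5377 to 5472 CPM of P48-Cre;Ehmt2+/+ mice. In each driver 3 of the 13 were called higher, Spp1, Cftr and Cldn4, and 1 lower, Muc1. Acinar markers were called lower, 8 of 12 in Pdx1-Cre and 7 of 12 in P48-Cre Ehmt2fl/fl mice, led by Nr5a2, a nuclear receptor of the acinar programme (-1.67, adjusted p = 0.00109 in Pdx1-Cre). T and NK cell markers had 0 of 10 genes with counts in all 22 libraries, and of the 8 tested among treated mice 0 were called in either driver. Of fibroblast and stellate markers 0 of 11 were called higher in either driver, and 1 was called lower in P48-Cre Ehmt2fl/fl mice, Lum (-1.17, adjusted p = 0.0285). Islet markers, 7 of 8 with a level in every library, summed to 925.4 to 1973 CPM in treated Pdx1-Cre;Ehmt2fl/fl mice, against 214.6 to 833.7 CPM in Pdx1-Cre;Ehmt2+/+ mice, and 4 of 8 were called higher there, while 0 of 8 were called in P48-Cre mice. The part of leukocytes, and of the loss of acinar transcripts, in the levels of Cd44, Itga2 and Itga3 was not tested.

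Ligands and partners of the receptors were read from lists of genes. The shares called over all genes tested are those given for the cell type markers. Among the RGD and provisional matrix ligands of αv and α5 integrins, 7 of 17 tested were called higher in Pdx1-Cre and 6 of 16 in P48-Cre Ehmt2fl/fl mice, and 0 lower. Ccn1, a secreted matrix protein that binds αv integrins, was at 18.1 to 28.0 CPM in Pdx1-Cre;Ehmt2fl/fl mice, against 2.53 to 4.17 CPM in Pdx1-Cre;Ehmt2+/+ mice (2.80, adjusted p = 0.000779), and Ccn2, its relative, had log2 differences of 2.46 in Pdx1-Cre and 1.87 in P48-Cre mice. Fga, a fibrinogen chain, was called in both drivers with hardly any reads in Ehmt2+/+ mice, so no fold is given. Thbs1, thrombospondin, was higher by 2.27 in Pdx1-Cre mice. The 8 collagen genes, ligands of α2β1, gave 0 calls in either driver, although Itga2 was called in both.

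Of hyaluronan and CD44 partners 6 of 19 tested were called higher in treated Pdx1-Cre;Ehmt2fl/fl mice and 2 of 18 in P48-Cre;Ehmt2fl/fl mice, and 0 lower. The hyaluronan synthase Has1 (3.41, adjusted p = 0.0231 in Pdx1-Cre; 3.39, adjusted p = 0.0958 in P48-Cre) and the hyaluronan-binding proteoglycan Vcan (2.27, adjusted p = 0.0261 in Pdx1-Cre; 1.92, adjusted p = 0.0989 in P48-Cre) were called in both. Vcan was at 150.4 to 199.3 CPM in Pdx1-Cre;Ehmt2fl/fl mice, against 13.3 to 64.1 CPM in Pdx1-Cre;Ehmt2+/+ mice. Tnfaip6, a secreted hyaluronan-binding protein, was called in Pdx1-Cre mice (2.39, adjusted p = 0.0389), as was Mmp14, a membrane protease that cleaves CD44 in human cells (1.18, adjusted p = 0.0408). Inside the cell, 1 of 24 genes of integrin activation and focal adhesions was called higher in Pdx1-Cre;Ehmt2fl/fl mice, Fermt3, the kindlin of blood cells (1.09, adjusted p = 0.0768), and 0 of 24 in P48-Cre;Ehmt2fl/fl mice. These counts are near the shares of all genes called higher, 4.22% in Pdx1-Cre and 4.01% in P48-Cre mice. Hemidesmosome genes gave 0 of 4 calls in Pdx1-Cre and 0 of 3 in P48-Cre mice, and of the other integrin chains that are not restricted to leukocytes 1 of 6 was called in Pdx1-Cre mice, Itgb8 (1.35, adjusted p = 0.0131), and 0 of 5 in P48-Cre mice.

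The lists were also read for caerulein over untreated Pdx1-Cre pancreas. Of all genes tested, 18.5% were called higher and 14.7% lower in Ehmt2fl/fl mice. In Ehmt2+/+ mice these shares were 10.4% and 9.61%. Ligands of the RGD list were called higher in 9 of 17 tested in Ehmt2fl/fl mice and 6 of 14 in Ehmt2+/+ mice, and 1 was called lower in each genotype, Vtn, the plasma matrix protein vitronectin (-3.79 in Ehmt2fl/fl and -2.53 in Ehmt2+/+ mice). Tnc, tenascin C, was higher by 6.14 in Ehmt2fl/fl and 1.96 in Ehmt2+/+ mice. Its level was 0.660 to 1.06 CPM in untreated Ehmt2fl/fl mice but 0.646 to 10.2 CPM in untreated Ehmt2+/+ mice. A genotype difference can therefore not be read from these values. Focal adhesion genes were called higher in 10 of 24 in Ehmt2fl/fl mice and 4 of 24 in Ehmt2+/+ mice, and lower in 2 of 24 in Ehmt2fl/fl mice (Tln2, a talin, and Lims2) and 1 of 24 in Ehmt2+/+ mice (Tln2), with Zyx, zyxin, at 2.45 in Ehmt2fl/fl and 2.27 in Ehmt2+/+ mice and Actn1, an actinin, at 2.20 and 1.87. Collagen genes gave 0 of 8 calls in either genotype. Of hyaluronan and CD44 partners 11 of 19 tested were called higher in Ehmt2fl/fl and 5 of 16 in Ehmt2+/+ mice, and 1 lower in Ehmt2fl/fl mice, the splicing factor Esrp2 (-1.07). Those higher included Vcan at 4.76 and 3.01 and Ezr, ezrin, which links CD44 to actin, at 1.73 and 1.10. Macrophage markers were called higher in 12 of 12 in Ehmt2fl/fl and 9 of 12 in Ehmt2+/+ mice and acinar markers lower in 12 of 12 and 10 of 12, and their part in the receptor differences was not tested. Hemidesmosome genes were called higher in 2 of 3 tested in Ehmt2fl/fl mice, Dst (1.38) and Plec (1.04), which anchor keratins to the α6β4 integrin, and in 0 of 4 in Ehmt2+/+ mice, and the difference between genotypes was called for neither.

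Across the 22 libraries, which share their age and treatment groups, Itgav and Cd44 had the most alike log2 CPM of any pair of the 10 genes (Pearson r = 0.93), followed by Itga2 and Itgav (0.90) and Itgb6 and Cd44 (0.90). Itga6 had a negative r with each of the other 9, down to -0.82 with Itgb6, and Itgb1 and Itgb4, which share no α chain other than α6, had -0.10. Of 9213 genes with a mean of at least 5 CPM, those most like the mean of the 10 were Eno1 (0.977), Cyfip1 (0.976), Tgfbi (0.972), Actg1 (0.969) and Kpnb1 (0.958), and those most like Cd44 were Lgmn (0.982), Tpm3 (0.977) and Actb (0.975). Actb and Actg1 are the cytoplasmic actins and Tgfbi is a secreted ligand of integrins.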

How the data were processed

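Libraries of pancreatic poly(A) RNA were made for 22 mice (8 groups) and sequenced without strand information, and only RNA of adequate integrity was kept. The authors aligned the reads with the MapRseq workflow to GRCm38 (patch p6), counted reads per Gencode gene and tested them with edgeR 3.28.1. They deposited raw counts per gene with RPKM and their own test columns in 6 sheets of 3 workbooks. Their RPKM, fold changes and p-values were not used, and gene length was taken as listed in the sheets. Sheets hold only part of all genes. The 134862 counts listed in more than 1 sheet were identical (0 differed). Itga2 and Itgb6 were absent from the young adult genotype sheet, so their counts there come from the caerulein sheets.

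The 10 genes and all lists were chosen with earlier results of these data known. Groups were taken from the sample labels, and mice are numbered in label order only. Counts were fitted with edgeR 4.0.16 (R 4.3.3): TMM, filterByExpr (minimum count 10, total 15), glmQLFit and glmQLFTest, in 3 models of 11 libraries each, untreated groups, Pdx1-Cre young adult and treated groups, and treated groups. Genes listed only for the compared groups were fitted on those alone. p-values are two-sided and Benjamini-Hochberg adjusted over all genes, and a call needed an adjusted p under 0.1 and a 2-fold difference, as in the study. SE was computed from the log2 difference and F. The replicates are mice, so p-values measure the spread between mice. Fits were tested on simulated data before use. Simulated log2 changes of 1 were called in 46% of changed genes for caerulein in Ehmt2+/+ mice. For genotype in treated Pdx1-Cre and P48-Cre mice this was 22% and 8%. A change of 1 lies at the 2-fold limit, so estimates that fall below it are not called whatever their p. Changed genes were drawn from those with a mean above 1 CPM, so genes with few reads were not covered. Changes of log2 2 were called in 98%, 92% and 84%. A gene that was not called may therefore still differ. Pearson r used log2 CPM with a prior count of 2. GC balance uses the deviation of a gene's log2 CPM from its mean over all libraries. It is the mean deviation of genes above the upper GC quartile (54.6%) minus that below the lower one (45.2%). Genes had a mean of at least 5 CPM, and digestive enzyme, mitochondrial and ribosomal RNA genes and the 10 genes were left out. Alternatives were RLE factors, TMM without digestive enzyme and mitochondrial genes, library totals alone, no filter, DESeq2 1.42.0, other models and thresholds, sex, and each library left out. Those with GC balance, length balance and without ribosomal RNA genes were added after seeing the data.

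All 10 genes are named in every comparison. Of each other list up to 4 genes with the lowest adjusted p in a comparison are named, and of all other genes the 5 most like the mean of the 10 and the 3 most like Cd44. The laminin ligand list is not reported here. Spp1 is in both the RGD and the epithelial list.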

Additional observations from a re-analysis of the deposited data

How the results depend on the processing

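Among the values of single genes recomputed, 2221 stayed on their side of the threshold, 59 gained a call and 38 lost one. Values that were not called could change sign among the 2221, as Itga2 and Cd44 did in young adults. A sign change that came with a call was seen in 1, Itga6 for caerulein in Ehmt2fl/fl mice with library totals alone (log2 1.71). Library totals alone gave 6 calls among the 10 genes for genotype by caerulein, 7 for genotype in treated Pdx1-Cre and in treated P48-Cre mice and 8 over both drivers. Genotype by caerulein, with 0 calls, had 3 by DESeq2, 2 in a model of all 8 groups and 1 with GC balance. Over all genes these settings called 204 higher and 365 lower, 116 and 188, and 120 and 125, against 51 and 118 in the fit used. Treated Pdx1-Cre, with 4, had 1 with sex as a covariate, and over both drivers, with 4, there were 7 without a minimum fold. With length balance Itgb4 was called in young adults (1.52, adjusted p = 0.0171) and for genotype by age (2.04, adjusted p = 0.0598), 1 call each. Leaving out each library gave 0 to 2 calls for genotype by caerulein, 1 to 6 for treated Pdx1-Cre, 1 to 3 for treated P48-Cre, 3 to 4 over both drivers, 6 to 7 for caerulein in Ehmt2fl/fl and 5 to 6 in Ehmt2+/+ mice, and 0 in postnatal mice, young adults, by age and by driver. The cause of these shifts was not tested.

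Over all genes, calls moved by more than 1.5 times in each comparison but that by driver, where 0 to 2 were called. With a library left out and under the other settings they ran between 32 and 584 and between 56 and 294 in postnatal mice (91 in the fit used), 8 to 274 and 31 to 355 in young adults (43), 0 to 148 and 4 to 826 by age (4), 4426 to 4896 and 3560 to 13210 for caerulein in Ehmt2fl/fl (4847), 2175 to 3135 and 2219 to 10517 in Ehmt2+/+ (2794), 10 to 642 and 19 to 2097 for genotype by caerulein (169), 162 to 1271 and 336 to 5214 in treated Pdx1-Cre (1076), 94 to 906 and 507 to 4782 in treated P48-Cre (879), and 977 to 1223 and 1037 to 4540 over both drivers (1166). The share of calls that were higher was 98.6% with library totals alone, against 55.8% in the fit used, for caerulein in Ehmt2fl/fl mice, 98.5% against 52.0% in Ehmt2+/+ mice, 97.6% against 30.2% for genotype by caerulein, 98.0% against 59.6% in treated Pdx1-Cre, 98.3% against 67.4% in treated P48-Cre, 98.3% against 65.9% over both drivers and 77.8% against 93.0% in young adults. Other settings moved it too. Without young adult Ehmt2+/+ mouse 1 it was 29.6% in young adults (81 higher, 193 lower). For genotype by caerulein it was 5.26% with sex as a covariate (1 higher, 18 lower) and 0% without untreated Ehmt2+/+ mouse 2 (0 higher, 10 lower). In treated Pdx1-Cre mice it was 42.9% with sex as a covariate (144 higher, 192 lower).

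No paired analysis was possible because the labels give no replicate numbers shared between groups. Fits of the compared groups alone for differences of differences, of all 8 groups for the average over both drivers, and with sex for the untreated mice were not run. Groups of 2 or 3 mice, 1 to 17 reads of Itga2 and Itgb6 per young adult library, and treated and untreated cohorts that cannot be told apart set the main limits.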
